A study of Mus musculus with 12 samples.

Results

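The 32 genes described here are genes of the choroid plexus epithelium. They were matched by gene symbol to a list of such genes, and all 32 are among the 23183 gene symbols listed for each library. *Ecrg4*, one of the 32, is listed under its older symbol *1500015O10Rik*. RNA-seq libraries were made from the cortex and from the hippocampus of male C57BL/6 mice, which were bought at 7 weeks of age and acclimatized for 1 week before the experiment. The control mice (Con) were sham-irradiated with 0 Gy, and the irradiated mice (IR) received a single X-ray dose of 10 Gy to the head. Both regions were collected 3 months later, with 3 Con and 3 IR libraries for each region and 12 libraries in all. The labels name no transgene, and they name neither the mouse behind each library nor whether several mice were pooled, so the p values measure only the spread between these libraries. The question put to these genes was whether each one differed between Con and IR, and whether it rose and fell from library to library together with the others.

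The choroid plexus is a fringe of capillaries wrapped in a single layer of epithelial cells that hangs in the brain ventricles. Its epithelium makes cerebrospinal fluid by moving ions and water, is sealed by tight junctions as the barrier between blood and that fluid, and secretes carrier proteins, growth factor antagonists and enzymes into it. The plexus of the lateral ventricle is attached next to the hippocampus, and some of its tissue can stay on or fall off when the hippocampus or the cortex is dissected. *Ttr*, which encodes transthyretin, the carrier of thyroid hormone and retinol, is the most abundant product that marks this epithelium in the brain.

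Values are FPKM (fragments for each kilobase of a transcript, relative to all mapped fragments), which are per length and can be compared between genes. They summed to between 359773 and 393447 per library, and relative depth, read from the spacing of the lowest values, was 1 to 1.12 within a region. That reading was limited to ratios near 1, so a large difference in depth could not have shown in it. The labelled regions were checked with a pair of neuronal markers. *Prox1*, which marks granule cells of the dentate gyrus, ranged from 14.4 to 21.1 FPKM in hippocampus libraries and from 1.69 to 2.23 FPKM in cortex libraries. *Rorb*, which marks layer neurons of the cortex, ranged from 2.39 to 3.37 FPKM in hippocampus libraries and from 7.29 to 8.94 FPKM in cortex libraries. No pair of libraries held identical values.

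In choroid plexus genes, 3 libraries stood apart from the other 9, and they were spread over both groups. In the cortex, *Ttr* was at 2.75, 9.64 and 27.4 FPKM in Con 1, 2 and 3 and at 15.3, 426 and 14.1 FPKM in IR 1, 2 and 3. In the hippocampus, it was at 16.7, 1005 and 55.6 FPKM in Con 1, 2 and 3 and at 1582, 32.9 and 15.9 FPKM in IR 1, 2 and 3. Cortex IR 2, hippocampus Con 2 and hippocampus IR 1 were thus the 3 libraries above 100 FPKM, and no other library was above 55.6 FPKM. They are called the high-*Ttr* libraries below, and the comparisons between groups and regions are given with and without them. In bulk tissue, more choroid plexus tissue in a sample and more RNA of these genes per cell cannot be told apart.

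Most other members had their highest values in the same libraries. The highest of the 6 cortex libraries was IR 2 for 28 of the 31 genes other than *Ttr*, by which the libraries were set apart, the exceptions being *Cldn1*, *Msx1* and *Rdh5*. The 2 highest of the 6 hippocampus libraries were Con 2 and IR 1 for 31 of 31. Among the members with enough signal to be tested (at least 0.5 FPKM in at least 3 libraries of the region), the counts were 12 of 15 in the cortex and 19 of 19 in the hippocampus. Some members reached this filter only through the high-*Ttr* libraries, such as *Clic6* and *Calml4* through IR 2 in the cortex and *F5* through Con 2 and IR 1 in the hippocampus. For such members the filter itself favored this order. Over all genes tested, IR 2 was the highest cortex library for 12.7%, and Con 2 and IR 1 were the 2 highest hippocampus libraries for 5.8%. Between these 2 hippocampus libraries, the irradiated one was the higher for 26 of the 31, with a median ratio of 1.22, and *Sostdc1*, *Clic6*, *Cldn1*, *Krt18* and *Cab39l* were higher in Con 2.

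**Figure D1:**
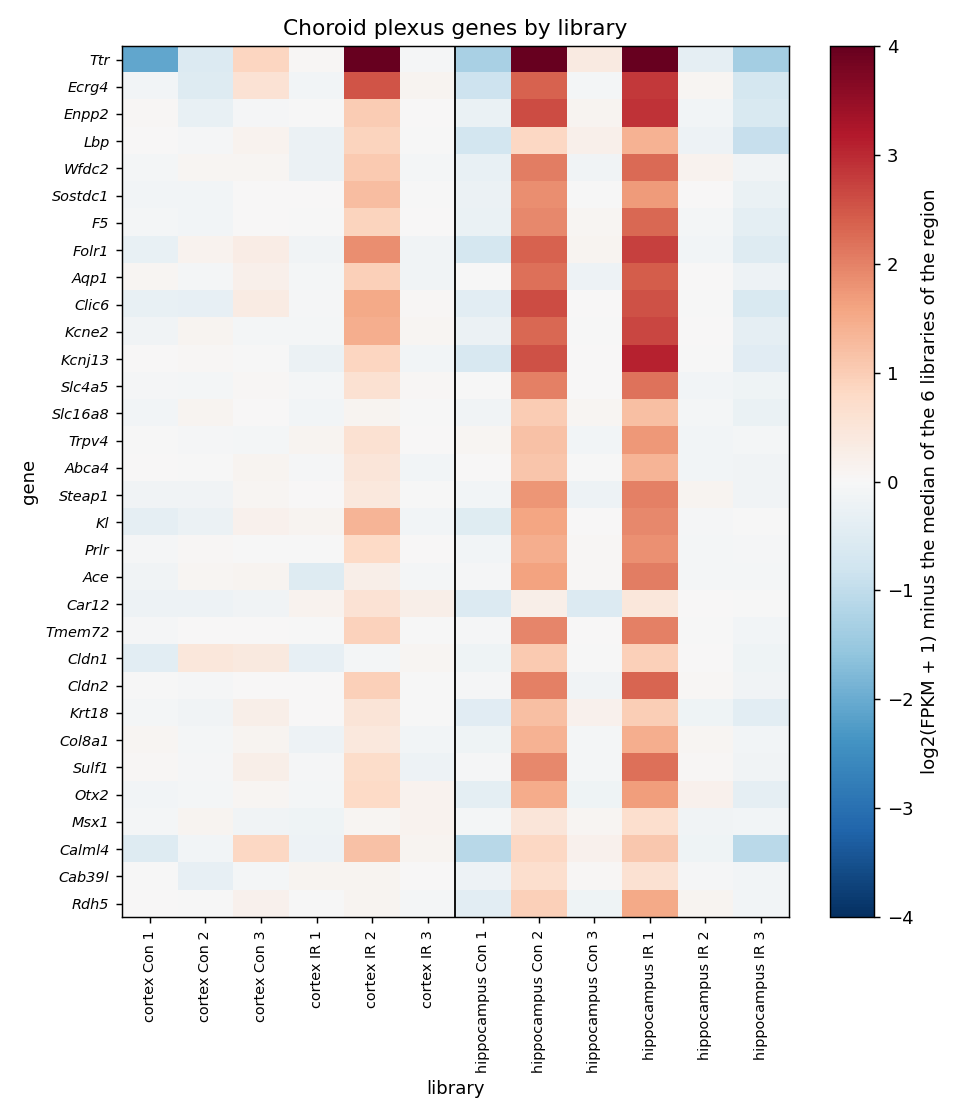
Level of each of the 32 choroid plexus genes in the 12 libraries, as log2(FPKM + 1) minus the median of the 6 libraries of the region (color scale, with colors ending at 4 below and above the median), with genes in rows and libraries in columns. The columns of cortex IR 2, hippocampus Con 2 and hippocampus IR 1 stand out over nearly all rows, and *Cldn1*, *Msx1* and *Rdh5* are the rows in which cortex IR 2 is not the highest cortex library.

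Among the secreted proteins, *Ecrg4* encodes a secreted peptide precursor that was first described as a gene silenced in esophageal cancer. It lies on the plus strand at chr1:43730602-43742578 (GRCm38, GENCODE M21) and is protein coding. The 250 bases before its start site in RefSeq (GRCm38.p6, plus strand, chr1:43730352-43730601) end just before the first base of the annotated gene. They are printed because this is the member followed most closely here, all in lower case since the motif searched for below does not occur in them.
Ecrg4 upstream: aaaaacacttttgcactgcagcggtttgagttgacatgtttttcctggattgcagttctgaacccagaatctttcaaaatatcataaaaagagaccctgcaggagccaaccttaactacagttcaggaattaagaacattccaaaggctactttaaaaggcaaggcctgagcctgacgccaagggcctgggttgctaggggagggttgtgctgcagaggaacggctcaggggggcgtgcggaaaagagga

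In the cortex, *Ecrg4* was at 0.740, 0.324 and 1.79 FPKM in Con and at 0.729, 9.82 and 1.03 FPKM in IR. IR 2 was the only IR library above the range of Con, and the other 2 lay inside it. In the hippocampus, *Ecrg4* was at 1.43, 21.1 and 3.15 FPKM in Con and at 29.5, 3.53 and 1.67 FPKM in IR. Here each group had a library far above its others, and the groups overlapped. The level of *Ecrg4* was 13.3 times the median of the other libraries of the region in cortex IR 2, 8.75 times in hippocampus Con 2 and 12.2 times in hippocampus IR 1.

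The mean level of *Ecrg4* in the cortex was 0.952 ± 0.757 FPKM for Con and 3.86 ± 5.16 FPKM for IR (SD, n = 3). The hippocampus means were 8.55 ± 10.9 FPKM for Con and 11.6 ± 15.5 FPKM for IR. The SD was larger than the mean in 3 of these 4 groups. The ratio of the means, IR to Con, was 4.05 for the cortex and 1.35 for the hippocampus. Without the high-*Ttr* libraries, the ratios were 0.925 and 1.13. On the log2(FPKM + 1) scale, the difference in the cortex was 0.85 (SE 0.85, adjusted p = 0.721 from limma) with all 6 libraries and 0.01 (SE 0.29, adjusted p = 0.994) without IR 2. For the hippocampus, it was 0.24 (SE 1.30, adjusted p = 0.947) with all 6 and 0.13 (SE 0.34, adjusted p = 0.951) with the 4 that remain.

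*Ecrg4* did not stand in one fixed ratio to *Ttr*. Per 100 FPKM of *Ttr*, it was at 2.31, 2.10 and 1.86 FPKM in cortex IR 2, hippocampus Con 2 and hippocampus IR 1, and at 3.36 to 26.9 FPKM in the other 9 libraries, which thus all had the higher ratio.

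**Figure D2:**
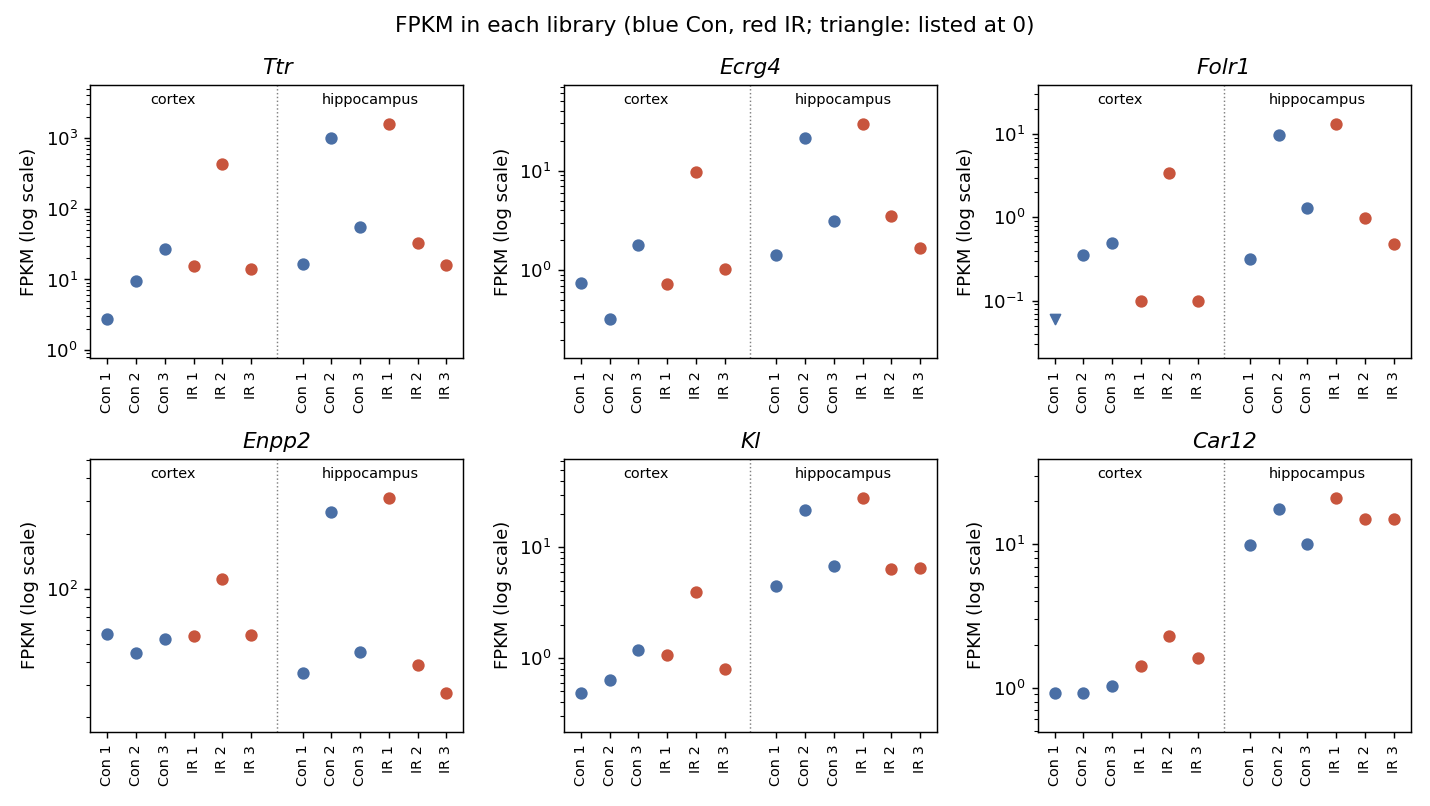
FPKM of *Ttr*, *Ecrg4*, *Folr1*, *Enpp2*, *Kl* and *Car12* in each of the 12 libraries on a log axis, with Con in blue, IR in red and a triangle for a value of 0. Cortex IR 2, hippocampus Con 2 and hippocampus IR 1 lie apart from the other libraries for *Ecrg4*, at 9.82, 21.1 and 29.5 FPKM, whereas all 3 red points of *Car12* lie above the blue points in the cortex.

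*Enpp2* encodes autotaxin, the secreted enzyme that makes lysophosphatidic acid, and is also made by oligodendrocytes. It was at 57.1, 44.7 and 53.5 FPKM in cortex Con and at 55.2, 114 and 55.8 FPKM in cortex IR. Its hippocampus levels were 34.8, 261 and 45.2 FPKM in Con and 313, 38.5 and 27.2 FPKM in IR. Outside the high-*Ttr* libraries, *Enpp2* was above *Ttr* in each library but hippocampus Con 3, and it stayed between 27.2 and 57.1 FPKM.

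*Sostdc1*, an antagonist of BMP and Wnt signals, was at 0.286 to 0.394 FPKM in the cortex libraries other than IR 2, which was at 2.30 FPKM. Hippocampus levels were 1.69, 10.4 and 2.14 FPKM in Con and 9.26, 2.16 and 1.64 FPKM in IR, with Con 2 the highest. The highest library of each region was thus a high-*Ttr* library, from IR in the cortex and from Con in the hippocampus. *Lbp*, the lipopolysaccharide-binding protein, reached 1.64 FPKM in cortex IR 2 and 4.25 and 6.81 FPKM in hippocampus Con 2 and IR 1. Among the other libraries it was at most 0.571 FPKM in the cortex and between 0.567 and 2.39 FPKM in the hippocampus, a wide range with Con 3 at its top. *F5*, coagulation factor V, had 1.06, 4.60 and 6.30 FPKM in the same 3 libraries and at most 0.559 FPKM elsewhere. *Wfdc2*, a small secreted protein with protease inhibitor domains, had 1.40, 4.02 and 4.85 FPKM there and at most 0.334 FPKM elsewhere. In all 4, the top values of each region were in its high-*Ttr* libraries.

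The transporters and channels carry folate, ions, water and metabolites across the epithelium. *Folr1*, the folate receptor that moves folate into the cerebrospinal fluid, was at 0, 0.351 and 0.488 FPKM in cortex Con and at 0.0999, 3.39 and 0.0979 FPKM in cortex IR. Hippocampus levels were 0.321, 9.91 and 1.30 FPKM in Con and 13.3, 0.972 and 0.484 FPKM in IR. *Folr1* thus followed the order of *Ttr* in the hippocampus, where its 4 highest libraries were those of *Ttr* in the same order. *Kcne2*, a potassium channel subunit, had 2.14, 5.92 and 8.08 FPKM in cortex IR 2, hippocampus Con 2 and hippocampus IR 1 and at most 0.427 FPKM in the others. *Clic6*, an intracellular chloride channel protein, was at 0.203, 0.188 and 0.873 FPKM in cortex Con, at 0.418, 3.23 and 0.546 FPKM in cortex IR, at 0.945, 14.9 and 1.66 FPKM in hippocampus Con and at 14.2, 1.55 and 0.711 FPKM in hippocampus IR. Its 2 high hippocampus values differed little from each other, and 1 of them was Con and the other IR.

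*Kcnj13*, an inward rectifier potassium channel, differed from these in the cortex. It was at 1.07, 1.11 and 1.02 FPKM in cortex Con and at 0.722, 2.70 and 0.896 FPKM in cortex IR, so that IR 2 was 2.65 times the median of the other cortex libraries. Its hippocampus levels were 0.103, 8.99 and 0.702 FPKM in Con and 13.4, 0.701 and 0.233 FPKM in IR, and Con 2 and IR 1 were 19.3 and 28.7 times the median of the others. Outside the high-*Ttr* libraries, all cortex libraries were above all hippocampus libraries.

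*Aqp1*, the water channel of the apical membrane, was at 1.30 FPKM in cortex IR 2 and at 4.73 and 5.72 FPKM in hippocampus Con 2 and IR 1, against at most 0.367 FPKM in the others. *Slc4a5*, a sodium bicarbonate cotransporter, was at 0.610, 3.52 and 4.11 FPKM in the same 3 libraries and at most 0.141 FPKM elsewhere, and *Steap1*, a metalloreductase, was at 0.474, 3.09 and 3.92 FPKM there and at most 0.319 FPKM elsewhere. *Slc16a8*, a lactate transporter, showed the pattern in the hippocampus, with 1.502 and 1.83 FPKM in Con 2 and IR 1 and at most 0.303 FPKM in the others, but in the cortex IR 2 (0.367 FPKM) was close to Con 2 (0.349 FPKM). *Trpv4*, an osmosensitive cation channel, was at 0.366, 0.348 and 0.310 FPKM in cortex Con and at 0.471, 1.08 and 0.391 FPKM in cortex IR, without overlap, but it was too low to be tested in the cortex. In the hippocampus *Trpv4* had 2.40 and 4.07 FPKM in Con 2 and IR 1 and 0.388 to 0.583 FPKM in the others. *Abca4*, a retinoid flippase, had 1.10 FPKM in cortex IR 2 and 1.94 and 2.46 FPKM in hippocampus Con 2 and IR 1, against 0.230 to 0.626 FPKM elsewhere.

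Among the receptors and membrane enzymes, *Kl* encodes klotho, the coreceptor of FGF23. It was at 0.484, 0.630 and 1.18 FPKM in cortex Con and at 1.06, 3.93 and 0.797 FPKM in cortex IR. In hippocampus libraries it was at 4.50, 21.95 and 6.83 FPKM in Con and at 28.1, 6.37 and 6.52 FPKM in IR. The high-*Ttr* libraries again led, but the hippocampus libraries other than these were all above every cortex library. *Ace*, the angiotensin-converting enzyme, was at 3.80, 4.56 and 4.72 FPKM in cortex Con and at 2.67, 5.19 and 3.96 FPKM in cortex IR, a range in which IR 2 was the highest by little. In the hippocampus *Ace* had 9.51 and 13.4 FPKM in Con 2 and IR 1 and 2.30 to 2.59 FPKM in the others. *Prlr*, the prolactin receptor, was at 1.01 FPKM in cortex IR 2 and at 2.81 and 3.89 FPKM in hippocampus Con 2 and IR 1, and at most 0.445 FPKM elsewhere. *Tmem72*, a membrane protein, had 0.943, 3.26 and 3.44 FPKM in these 3 libraries and at most 0.102 FPKM elsewhere.

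*Car12*, a carbonic anhydrase that faces the outside of the cell, had a different pattern. It was at 0.919, 0.921 and 1.03 FPKM in cortex Con and at 1.41, 2.29 and 1.62 FPKM in cortex IR. All 3 IR libraries were above all 3 Con libraries, with IR 2 the highest. In the hippocampus *Car12* was at 9.92, 17.8 and 10.05 FPKM in Con and at 21.1, 15.1 and 14.98 FPKM in IR. Con 2 was the only hippocampus Con library above IR 2 and IR 3, and IR 1 was above all Con libraries. In hippocampus Con 2 and IR 1, *Car12* was 1.42 and 1.69 times the median of the other libraries, against 8.75 and 12.2 times for *Ecrg4*.

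Of the junction, keratin and matrix genes, *Cldn2* encodes a claudin of the leaky tight junctions of this epithelium and *Cldn1* a sealing claudin that is also made by other cells. *Cldn2* was at 1.01 FPKM in cortex IR 2 and at 4.53 and 5.77 FPKM in hippocampus Con 2 and IR 1, against at most 0.402 FPKM in the others. *Cldn1* was at 0.346, 1.51 and 1.36 FPKM in cortex Con and at 0.451, 0.712 and 0.937 FPKM in cortex IR. It was the only member that was lower in cortex IR 2 than the median of the other cortex libraries. In the hippocampus *Cldn1* had 1.91 and 1.74 FPKM in Con 2 and IR 1 and 0.243 to 0.413 FPKM in the others, with Con 2 above IR 1. *Krt18*, a keratin of simple epithelia, had 0.667 FPKM in cortex IR 2 and 3.22 and 2.64 FPKM in hippocampus Con 2 and IR 1. Its level in hippocampus Con 3, 1.07 FPKM, was the highest among the other libraries. *Col8a1*, a short-chain collagen, had 1.42, 2.27 and 2.38 FPKM in the 3 libraries, and *Sulf1*, a heparan sulfate endosulfatase, had 3.72, 6.98 and 8.58 FPKM. Elsewhere *Col8a1* ranged from 0.558 to 0.933 FPKM (cortex) and from 0.103 to 0.318 FPKM (hippocampus), and *Sulf1* from 1.496 to 2.38 FPKM and from 0.878 to 1.14 FPKM.

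The transcription factor *Otx2*, which maintains the identity of the choroid plexus, was at 0.0285, 0.0569 and 0.171 FPKM in cortex Con and at 0.0564, 0.938 and 0.230 FPKM in cortex IR. Its hippocampus levels were 0.266, 3.57 and 0.474 FPKM in Con and 4.22, 0.853 and 0.275 FPKM in IR, with Con 2 and IR 1 apart from the others. *Msx1*, a homeobox factor of BMP-responsive cells, was at 0.611, 0.801 and 0.545 FPKM in cortex Con and at 0.509, 0.767 and 0.873 FPKM in cortex IR, with IR 2 inside the range of the others. In the hippocampus *Msx1* had 2.29 and 2.77 FPKM in Con 2 and IR 1 and 1.13 to 1.45 FPKM in the others.

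Promoter windows of 250 bases upstream of the start site were at hand from RefSeq (GRCm38.p6) for 25 of the 32 members, 34 windows in all since some genes have several start sites. The letters TAATCC, the core that OTX homeodomains bind, and their reverse complement GGATTA were searched for on both strands. They occurred in 3 of the 34 windows (8.82%) and in 2054 of 32851 windows of all genes (6.25%). The 3 matches are printed with their surroundings, read along the strand of the gene, with the motif in capitals. The match begins 58 bases before the start site in *Abca4* (chr3:122044390-122044419, plus strand), 27 bases before it in *Ace* (chr11:105967909-105967938, plus strand) and 211 bases before one of the start sites of *Otx2*, inside the gene (chr14:48665303-48665332, minus strand).
Abca4 site: gtaattagagggGGATTAtgcttgaagggg
Ace site: ggctgggttttaTAATCCgcagggcggtcg
Otx2 site: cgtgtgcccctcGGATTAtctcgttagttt

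Among the intracellular proteins, *Calml4*, a calmodulin-like protein, was at 0, 0.338 and 1.53 FPKM in cortex Con and at 0.254, 2.23 and 0.530 FPKM in cortex IR. Its hippocampus levels were 0.983, 6.61 and 3.78 FPKM in Con and 8.003, 2.77 and 1.01 FPKM in IR, and Con 3 and IR 2 lay between the 2 high libraries and the rest. *Rdh5*, a retinol dehydrogenase, was at 1.07 to 1.47 FPKM in all 6 cortex libraries with the highest value in Con 3, whereas in the hippocampus it had 3.83 and 6.12 FPKM in Con 2 and IR 1 and 0.896 to 1.73 FPKM in the others. *Cab39l*, which resembles a scaffold of the kinase LKB1, was close to even over the cortex libraries. It was at 9.15, 7.30 and 8.77 FPKM in cortex Con and at 10.2, 10.3 and 9.57 FPKM in cortex IR, without overlap. In the hippocampus *Cab39l* was at 8.06, 15.6 and 9.71 FPKM in Con and at 14.95, 9.07 and 8.58 FPKM in IR, with the high-*Ttr* libraries above the rest.

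The members can also be compared by how much of each came with a given amount of *Ttr*. For each high-*Ttr* library, the excess of a gene over the median of the other libraries of its region was divided by the excess of *Ttr*. Per 1000 FPKM of *Ttr* excess, *Ecrg4* had an excess of 22.1 FPKM in cortex IR 2, 19.0 FPKM in hippocampus Con 2 and 17.4 FPKM in hippocampus IR 1. *Folr1* had 7.99, 9.37 and 8.05 FPKM, and *Kcne2* had 5.01, 5.74 and 5.003 FPKM. For these 3 genes the 3 libraries, from 2 regions and both groups, gave nearly the same figure. *Enpp2* had 142, 229 and 178 FPKM, *Clic6* had 6.84, 14.0 and 8.31 FPKM, and *Kl* had 7.62, 15.8 and 13.9 FPKM.

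Over the 30 members other than *Ttr* with an excess above 0 in all 3 libraries, the highest of the 3 figures was between 1.15 and 6.14 times the lowest, with a median of 1.72, and it was under 2 times for 19. It was over 3 times for *Slc16a8*, *Steap1* and *Rdh5*, and the excess of *Cldn1* was below 0 in cortex IR 2. In the 2 hippocampus libraries alone, 1 of them Con and the other IR, the median ratio over 31 members was 1.23, the range was 1.03 to 2.02, and 30 were under 2. *Rdh5* differed between the regions, with 0.507 FPKM per 1000 FPKM of *Ttr* in cortex IR 2 and 2.62 and 3.11 FPKM in the hippocampus libraries.

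**Figure D3:**
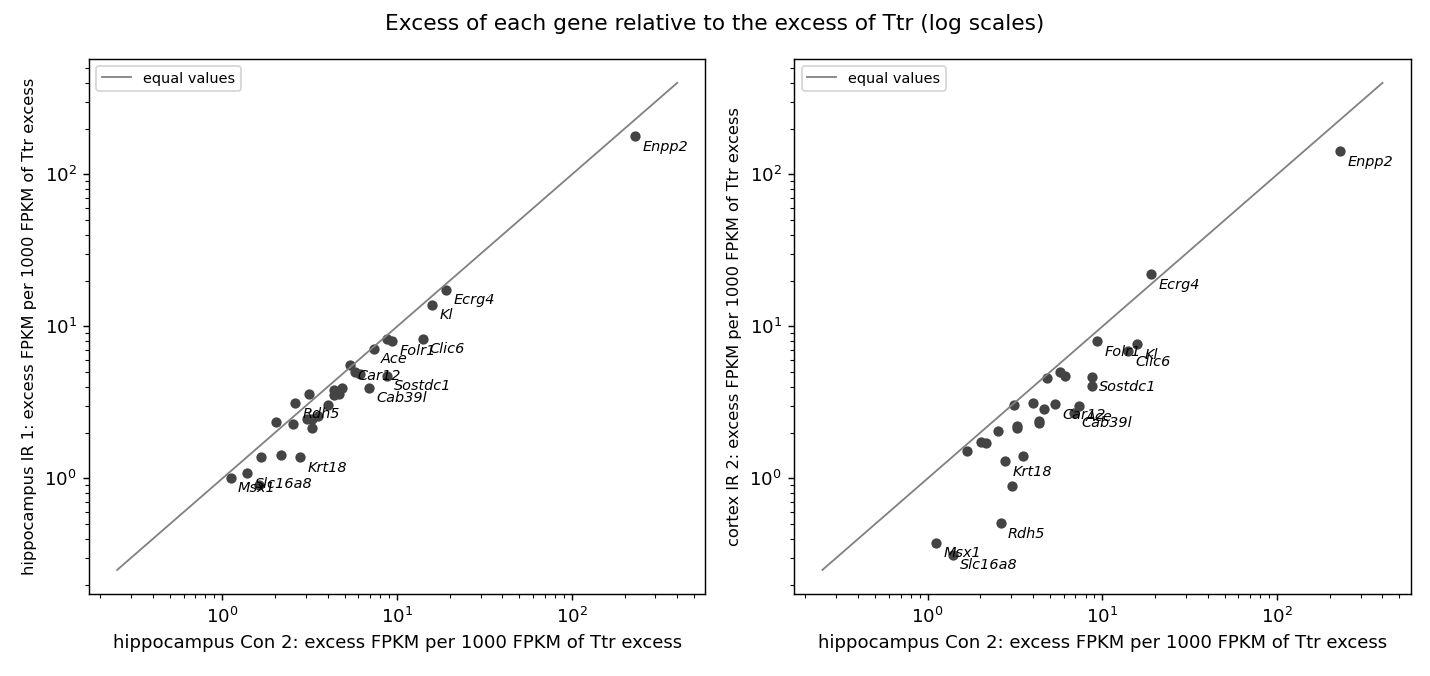
Excess of each member over the median of the libraries of its region with *Ttr* under 100 FPKM, per 1000 FPKM of *Ttr* excess, on log axes, with hippocampus Con 2 on the x axes and hippocampus IR 1 (left) or cortex IR 2 (right) on the y axes, 1 point per gene and a line of equal values. Points of the left panel lie close to the line (median ratio of the higher to the lower value 1.23), and in the right panel *Rdh5* and *Slc16a8* lie far below it.

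The order within the other 9 libraries was not the same for all genes. In the cortex, Con 3, which had the most *Ttr* among the 5 libraries left, was the highest for 19 of the 31 members other than *Ttr* and for 9 of the 15 of them tested, against 18.7% of all genes tested. In the hippocampus, Con 3 was the highest of 4 for 16 of the 31 and for 12 of the 19 tested, against 20.8% of all genes tested. IR 2 was the highest for 13 members there, and IR 3 for none of the 31. *Ecrg4* was the highest in Con 3 in the cortex (1.79 FPKM) and in IR 2 in the hippocampus (3.53 FPKM).

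The comparison of IR with Con, with all 6 libraries of a region, called none of the members at a fold of at least 1.5 with an unadjusted p under 0.05. The test covered 16 members in the cortex and 20 in the hippocampus, 23 in either and 13 in both. Untested members were at most 0.571 FPKM in the cortex libraries and at most 0.445 FPKM in the hippocampus libraries with low *Ttr*, and 9 were tested in neither region (*Wfdc2*, *Aqp1*, *Kcne2*, *Slc4a5*, *Slc16a8*, *Steap1*, *Prlr*, *Tmem72* and *Cldn2*). The same call was made for 0.483% of all 14065 genes tested in the cortex and for 0.527% of all 14043 in the hippocampus. At an adjusted p under 0.05 from limma, 0 members passed in either region, against 0.725% and 0.0285% of all genes. These shares of all genes depended on single libraries. Without hippocampus Con 3, 861 of the 14043 genes passed, against 4 with all 6 libraries. Without cortex IR 1, 17 of the 14065 passed, against 102. At an unadjusted p under 0.05, 2 members passed in the cortex (*Car12* and *Cab39l*) and 0 in the hippocampus, against 14.1% and 13.9% of all genes. Without the high-*Ttr* libraries, 0 members were called in the cortex (0.611% of all genes) and 0 in the hippocampus (0.491%), and 0 passed the adjusted threshold (0.199% and 0.00712%). The unadjusted threshold was then passed by 2 members in the cortex (*Ace* and *Car12*, against 11.7% of all genes) and 1 in the hippocampus (*Car12*, against 5.56%).

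In the cortex, 12 of the 16 tested members had a higher fitted level in IR, against 50.5% of all genes, with a median log2 fold change of 0.19. Some of the 16, such as *Clic6* and *Calml4*, passed the filter only through IR 2, which favors a higher level in IR. Without IR 2, the count was 8 of 16, against 51.1% of all genes, with a median of -0.05. In the hippocampus, 11 of 20 were higher in IR, against 47.3% of all genes, with a median of 0.07. Without Con 2 and IR 1 it was 7 of 20, against 50% of all genes, with a median of -0.05. The direction in the hippocampus followed which of these 2 libraries was kept, since all 20 were higher in IR without Con 2 (median 0.73) and 1 of 20 was higher in IR without IR 1 (median -0.64). Leaving out a library with little *Ttr* also moved the count, to 2 of 20 without Con 1, 5 without Con 3, 19 without IR 2 and 20 without IR 3. By the ratio of the group means, in which a single high library weighs more, 13 of the 16 in the cortex (median 0.34) and 16 of the 20 in the hippocampus (median 0.30) were higher in IR, and over all members, tested or not, 28 and 27 of the 32. With the level of *Ttr* as a covariate, it was 5 of the other 15 in the cortex (median -0.15) and 12 of the other 19 in the hippocampus (median 0.11).

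The spread shows the same. The median SE of the log2 fold change over the tested members was 0.22 for the cortex and 0.78 for the hippocampus, against 0.081 and 0.093 over all genes tested. Without the high-*Ttr* libraries the members' median SE was 0.13 and 0.19. *Ttr* itself had a log2 fold change of 2.18 (SE 1.76, adjusted p = 0.655) in the cortex and of -0.05 (SE 2.56, adjusted p = 0.995) in the hippocampus, and of 0.59 (SE 1.05) and -0.40 (SE 0.58) without those libraries. *Kl* had 0.60 (SE 0.40) and 0.24 (SE 0.80), and 0.14 (SE 0.17) and 0.18 (SE 0.18) without them. *Enpp2* had 0.45 (SE 0.32) and -0.10 (SE 1.31), and 0.11 (SE 0.10) and -0.29 (SE 0.20) without them. In the hippocampus *Folr1* had 0.11 (SE 1.24) with all libraries and -0.03 (SE 0.29) without Con 2 and IR 1.

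**Figure D4:**
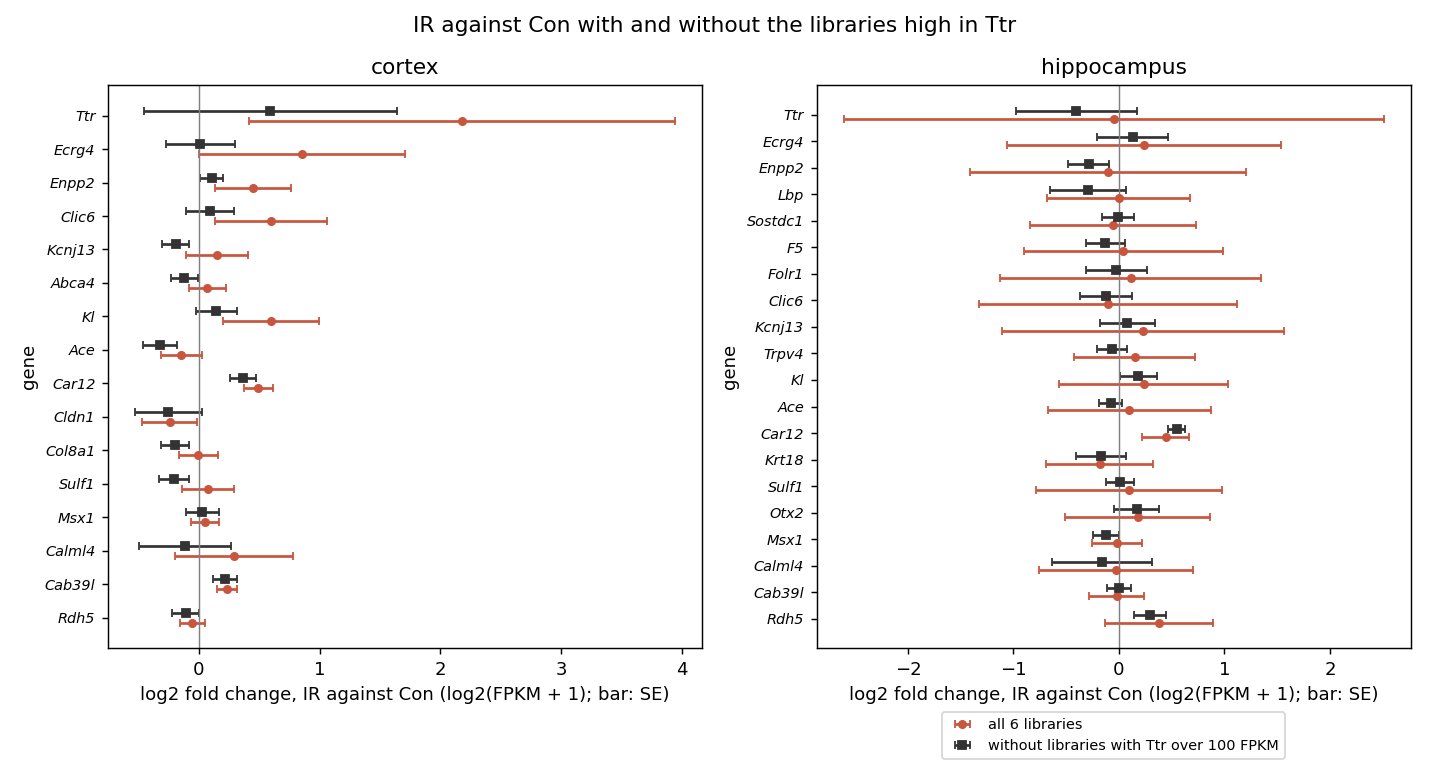
Log2 fold change (IR minus Con, on the log2(FPKM + 1) scale) of each tested member, by region, with bars of 1 SE, once with all 6 libraries and once without the high-*Ttr* libraries. The bars shorten without those libraries, and *Ecrg4* in the cortex moves from 0.85 to 0.01 while *Car12* moves from 0.49 to 0.36.

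*Car12* was higher in all IR libraries of the cortex but did not meet the call. Its level was 0.956 ± 0.0612 FPKM for Con and 1.77 ± 0.460 FPKM for IR (SD, n = 3). The log2 fold change was 0.49 (SE 0.12, unadjusted p = 0.00246, adjusted p = 0.119 from limma), under the fold of 1.5 on this scale. Without IR 2 it was 0.36 (SE 0.11, adjusted p = 0.256). The hippocampus means were 12.6 ± 4.49 FPKM for Con and 17.1 ± 3.52 FPKM for IR, with a log2 fold change of 0.44 (SE 0.22, adjusted p = 0.409). Without Con 2 and IR 1, the log2 fold change was 0.55 (SE 0.083, unadjusted p = 0.000673, adjusted p = 0.858), with both IR libraries above both Con libraries. *Car12* met the call in the cortex with a pseudocount of 0.1 (0.80), by the ratio of the group means (0.89) and without IR 1 (0.59), and in the hippocampus without Con 2. Of the 13 members tested in both regions, *Car12*, *Kl* and *Ecrg4* had a higher fitted level in IR in both regions with and without the high-*Ttr* libraries, and *Car12* alone of these had a difference larger than its SE in each of the 4 fits.

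*Cab39l* in the cortex was at 8.41 ± 0.975 FPKM for Con and 10.02 ± 0.388 FPKM for IR, with a log2 fold change of 0.23 (SE 0.083, adjusted p = 0.258) and of 0.22 (SE 0.10, adjusted p = 0.443) without IR 2. Its log2 fold change in the hippocampus was -0.02 (SE 0.26), and it was -0.0036 (SE 0.11) without Con 2 and IR 1. Con and IR libraries of *Car12* and *Cab39l* did not overlap in the cortex, 2 of the 16 tested members and with *Trpv4* 3 of all 32, against 20.3% of all genes tested. In the hippocampus 0 of 20 were without overlap, against 19.8%. Without the high-*Ttr* libraries, where fewer libraries make such an order more frequent, it was 7 of 16 in the cortex, against 29.7% of all genes, and 4 of 20 in the hippocampus, against 36.9%. *Ace* in the cortex had a log2 fold change of -0.15 (SE 0.17, adjusted p = 0.749), and of -0.32 (SE 0.14, adjusted p = 0.426) without IR 2.

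The effect of irradiation on a member was not shown to differ between the regions. In a fit over all 12 libraries the interaction of irradiation and region passed an adjusted p of 0.05 from limma for 0 of 23 members and an unadjusted p of 0.05 for 0, against 0.083% and 10.4% of the 14459 genes. *Car12* differed between the effects by -0.05 (adjusted p = 0.969) and *Ecrg4* by -0.61 (adjusted p = 0.922). Without the 3 high-*Ttr* libraries, 0 members passed the adjusted threshold and 1 of 23 the unadjusted one (*Rdh5*, 0.40, adjusted p = 0.845), against 5.91% of all genes at the latter.

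Between the regions in Con, 3 members differed at an adjusted p under 0.05, all of them higher in the hippocampus, against 44.2% of all genes and 23.6% in that direction. They were *Car12* (log2 difference 2.75, adjusted p = 1.99e-07 from limma), *Kl* (2.52, adjusted p = 0.0171) and *Msx1* (0.67, adjusted p = 0.0160). At an unadjusted p under 0.05, 5 members differed, against 51.1% of all genes. Without the 3 high-*Ttr* libraries, 9 of the 23 members differed, against 34.7% of all genes, and 5 of the 9 were higher in the hippocampus, against 18.2% of all genes. *Car12* (2.49), *Kl* (1.92, adjusted p = 2.53e-05), *Sostdc1* (1.14, adjusted p = 4.48e-05), *Clic6* (0.71, adjusted p = 0.0393) and *Msx1* (0.51, adjusted p = 0.00975) were higher in the hippocampus. *Ace* (-0.62, adjusted p = 0.00502), *Col8a1* (-0.70, adjusted p = 0.000892), *Sulf1* (-0.61, adjusted p = 0.00285) and *Kcnj13* (-0.59, adjusted p = 0.0317) were lower there. The value columns of the 2 regions carry different endings in their names, and what these mean is not stated. A difference between regions thus cannot be told apart from one in whatever the endings mark.

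Lists of other genes show what else moved in the 3 libraries. Of 20 further choroid plexus genes, 18 were tested in each region. Cortex IR 2 was the highest cortex library for 10 of them, and hippocampus Con 2 and IR 1 were the 2 highest for 17. Their median log2 level over the other libraries of the region was 0.17, 0.73 and 0.84 in the 3 libraries, against 0.87, 1.81 and 2.00 for the 32 members. The most abundant of them, *Atp1b1*, a sodium pump subunit that neurons also use, was at 829.6 FPKM in hippocampus Con 2 and at 732 FPKM in IR 1, with the other 4 between 721 and 828 FPKM, so it did not follow *Ttr*.

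Most of the tested genes among the 12 of ependyma and motile cilia, which line the ventricle next to the plexus, did not have this order. Cortex IR 2 was the highest for 1 of 6 tested, against 12.7% of all genes. Hippocampus Con 2 and IR 1 were the 2 highest for 2 of 10, against 5.8%. The medians were 0.30, -0.10 and 0.18 in the 3 libraries, and the one in cortex IR 2 was above the 0.17 of the further choroid plexus genes. Their summed level was 10.95 to 18.9 FPKM in cortex Con, 10.6 to 16.6 FPKM in cortex IR, 23.4 to 40.1 FPKM in hippocampus Con and 22.5 to 40.3 FPKM in hippocampus IR, with no gene of the list at 0 in all libraries. In cortex Con 3 and hippocampus Con 3, the libraries that led among the rest for many members, the ependymal medians were 0.38 and 0.34.

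Genes of meningeal fibroblasts, oligodendrocytes, endothelium, and thalamus and habenula were read in the same way. In the hippocampus, Con 2 and IR 1 were the 2 highest libraries for 0 of 12, 0 of 10, 1 of 10 and 2 of 8 tested genes of these lists. In the cortex, IR 2 was the highest for 3 of 12 meningeal genes, 8 of 10 oligodendrocyte genes, 8 of 10 endothelial genes and 1 of 7 thalamic and habenular genes. The oligodendrocyte genes, among them *Mbp* of myelin, had a median of 0.31 in cortex IR 2 and the endothelial genes, among them *Slc2a1* and *Cldn5*, one of 0.21. The thalamic and habenular genes had a median of 0.42 in hippocampus IR 1 and of -0.02 in hippocampus Con 2. *Pou4f1*, a habenular factor named after its values were seen, was at 0.834 FPKM in hippocampus IR 1 and at most 0.073 FPKM in the other hippocampus libraries. It was the most extreme of the list, and the 2 most abundant genes of the list were only 1.10 and 1.12 times the median of the low-*Ttr* libraries in IR 1. The part of each of these in the levels of the members was not tested.

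**Figure D5:**
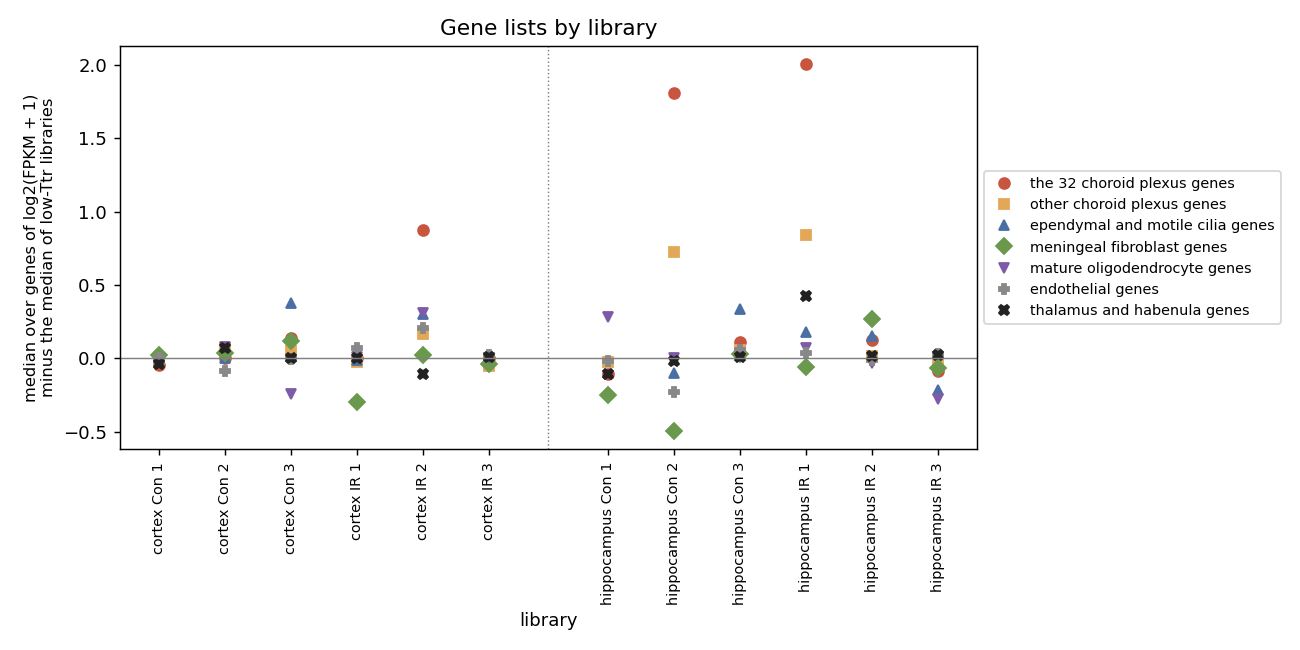
Median log2(FPKM + 1) of the genes of each list relative to the libraries of the same region with *Ttr* under 100 FPKM, by library. The 32 members are at 0.87, 1.81 and 2.00 in cortex IR 2, hippocampus Con 2 and hippocampus IR 1, the further choroid plexus genes at 0.17, 0.73 and 0.84, and the other lists between -0.49 and 0.42 in these 3.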

How the data were processed

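The authors trimmed the reads, aligned them to mm10 with TopHat and deposited 1 file of FPKM per library, which per the methods came from Cufflinks with a geometric normalization. The methods name column extraction and poly(A) selection and the labels Trizol and total RNA. The depth in reads is unknown, and no counting interval was given. Groups came from the labels. Members were matched by symbol. The members and all gene lists were chosen with earlier results of these data known.

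A gene was tested where 3 or more of the 6 libraries of a region reached 0.5 FPKM, on log2(FPKM + 1) with limma 3.58.1 in R 4.3.3 (variance trend, robust prior, Benjamini-Hochberg adjustment over all genes tested), so fold changes of low genes are understated. An exact permutation test of 3 against 3 cannot go below 0.1 and was not used. Interaction and region came from 1 fit of 12 libraries. On simulated data with 200 genes changed 2-fold, 99.5% were recovered in the cortex (14065 genes) and 99.5% in the hippocampus (14043 genes). The rate is for genes with the spread of all genes (median SE 0.081 and 0.093), and the members' spread was larger (0.22 and 0.78), so it cannot be carried over to them. The planned correlations with *Ttr* were not computed, because the libraries fall into separate clusters. Orders and excesses were given instead.

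All 32 members could be named, and of each other list any gene called and the 2 most abundant, though 1 of the abundant genes is not reported here. *Pou4f1* was named outside this rule, after its values were seen. *Prox1* and *Rorb* served as region checks. The high-*Ttr* libraries were left out in alternatives chosen after seeing the data. Other alternatives were no filter, a pseudocount of 0.1, quantile normalization, limma without trend or robust prior, *Ttr* as a covariate, the ratio of group means, the library number as a block, and leaving out each library. Libraries of the same number in Con and IR did not deviate together (correlations of -0.39 to 0.11). Promoters came from RefSeq and gene positions from GENCODE M21. Plots were made in Python 3.11.15 (matplotlib 3.10.9).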

Additional observations from a re-analysis of the deposited data

How the results depend on the processing

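The count of called members was 0 in each region. In the cortex it was 1 with a pseudocount of 0.1 and 1 with the ratio of group means, which called 1.66% and 1.87% of all genes against 0.483%. With each library left out in turn it was 0 to 1 (1 without IR 1, where 0.476% of all genes were called). The gene was *Car12* each time. In the hippocampus it was 0 to 1 with each left out (*Car12*, without Con 2, where 0.598% of all genes were called). The share of all genes called there was highest without Con 3, at 1.57%. With the library number as a replicate block it was 0 in both. The samples share only a number. Hippocampus Con 2 deviated with IR 1 (r = 0.30), and Con 1 did so with IR 3 to nearly the same degree (r = 0.29). Deviations were taken from the mean of each group, so positive and negative correlations had to occur together. Members that differed between the regions in Con numbered 3 of 23 (44.2% of all genes), and 5 with a pseudocount of 0.1 (44.2%) and 9 without the high-*Ttr* libraries (34.7%). With *Ttr* as a covariate, the cortex log2 fold changes of *Ecrg4* (-0.16) and *Clic6* (-0.046) turned. With the ratio of means, hippocampus *Ttr* (0.60) and *Enpp2* (0.15) turned, and without the high-*Ttr* libraries *Folr1* did (-0.026). With each library left out in turn, the log2 fold change ran from -0.32 to 0.052 for *Ace* in the cortex and, in the hippocampus, from -2.07 to 1.61 for *Ttr*, -0.80 to 1.17 for *Ecrg4*, -1.18 to 0.79 for *Enpp2*, -0.42 to 0.84 for *Kl*, -0.91 to 0.99 for *Folr1*, -0.41 to 0.76 for *Otx2* and -0.12 to 0.79 for *Rdh5*. The cause was not tested. The adjusted p of *Car12* ranged from 0.0985 to 0.416 in the cortex and from 0.238 to 0.858 in the hippocampus over the alternatives. *Ecrg4* in the hippocampus had its lowest unadjusted p from limma, 0.0293, with *Ttr* as a covariate (adjusted p = 0.329). The count of hippocampus members under an unadjusted p of 0.05 was thus no longer 0 with that covariate. *Rdh5* in the hippocampus had an unadjusted p from limma of 0.0035 at its lowest over the alternatives. The correlations with *Ttr* and their 2 alternatives were not run.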

Other observations

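The 12 meningeal fibroblast genes, all tested in both regions, were higher in IR in 12 of 12 in the hippocampus, against 47.3% of all genes (median log2 fold change of the list 0.33), and in 0 of 12 in the cortex, against 50.5% of all genes (median -0.23). With quantile normalization the counts were 12 and 1. Their summed level overlapped between the groups in the hippocampus, at 35.5, 34.7 and 57.4 FPKM in Con and at 60.6, 71.4 and 52.2 FPKM in IR. The hippocampus median was 0.14 without Con 2 and 0.19 without IR 2, and in the cortex it was -0.11, with 3 of 12 higher in IR, without IR 1. *Ogn*, a small leucine-rich proteoglycan, was at 1.00, 3.58 and 3.49 FPKM in hippocampus Con and at 5.37, 5.15 and 3.99 FPKM in IR, without overlap (log2 fold change 0.75, adjusted p = 0.347 from limma). *Slc6a13*, a GABA transporter of the meninges, was at 1.36, 1.07 and 2.55 FPKM in Con and at 2.79, 3.30 and 3.25 FPKM in IR, also without overlap (0.67, adjusted p = 0.259). Both met the fold of 1.5 with an unadjusted p under 0.05, against 0.527% of all genes, and 0 of the 12 passed an adjusted p of 0.05, against 0.0285%. *Ogn* no longer met the call without Con 1, IR 1 or IR 2, without the filter on low values or with a pseudocount of 0.1, and *Slc6a13* no longer met it without Con 2. In the other direction, the list had 4 called genes without Con 3 (1.57% of all genes) and 3 without IR 3 (0.669%). With a pseudocount of 0.1 it still had 2 (1.59%). Without hippocampus Con 2 and IR 1, 11 of 12 were higher in IR and 0 met the call. *Opalin*, a myelin gene, was lower in hippocampus IR, at 6.36, 13.4 and 10.2 FPKM against 19.2, 15.9 and 14.1 FPKM in Con (-0.71, adjusted p = 0.293), and it no longer met the call without Con 1, without IR 1, without both Con 2 and IR 1 or without the filter on low values. Of the 10 oligodendrocyte genes, 8 had a lower fitted level in hippocampus IR, where 47.3% of all genes had a higher one. Their median was -0.23, and -0.096 without Con 1 or -0.12 without IR 3. In cortex IR 9 had a higher level (median 0.20), against 50.5% of all genes. It was 6 without cortex IR 2 (median 0.10) and 7 without cortex Con 3 (median 0.11).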
